A study of Mus musculus with 6 samples.

Results

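A set of 10 genes for subunits of heterotrimeric G proteins was followed across bulk RNA sequencing libraries of mouse retinal ganglion cells. They comprise 5 alpha subunit genes (Gnao1, Gnas, Gnai1, Gnai2 and Gnaq), 3 beta subunit genes (Gnb1, Gnb2 and Gnb4) and 2 gamma subunit genes (Gng3 and Gngt2), out of 22413 genes in the count table and out of 33 subunit genes looked up, of which 30 had a row. The genes were chosen by the counts and CPM of these same libraries, in which Gnb1 and Gngt2 held most of the signal of rod and cone gene lists, so its values for the contrast between genotypes are a description and are not used as a test. The study compared adult mice with genotype Tgfbr1flx/flx;Vglut2Cre/+ (3 libraries, called Vglut2-Cre 1 to 3) with Tgfbr1flx/flx;Vglut2+/+ mice (3 libraries, called no-Cre 1 to 3), so both genotypes carried floxed alleles of the TGF-beta type I receptor gene Tgfbr1. Cre in the first genotype is driven by the vesicular glutamate transporter 2 gene (Slc17a6), which many glutamatergic neurons other than ganglion cells also use. The labels give no exact age, no method of cell isolation, and no statement on pooling of animals, so a library may be 1 animal or several, and the spread between libraries may be technical.

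A heterotrimeric G protein is an alpha subunit that binds GTP, held to a beta and gamma pair. An activated receptor makes the alpha subunit exchange GDP for GTP, after which alpha and beta-gamma each act on enzymes and channels until RGS proteins speed the return to the resting state. In the retina the best known of these proteins is transducin, which carries the light signal in rods (Gnat1, Gnb1 and Gngt1) and cones (Gnat2, Gnb3 and Gngt2), while ganglion cells and other neurons use Go, Gi, Gs and Gq proteins behind receptors for transmitters and peptides, and melanopsin ganglion cells signal through the Gq family.

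The coding sequences below show how the subunits differ where they meet receptors and membranes. The end of an alpha subunit contacts the receptor, and in the Gi and Go family the fourth residue from that end is the cysteine that pertussis toxin modifies. The last 36 coding bases, stop codon included, are given 5′ to 3′ on the strand of the gene, from GENCODE M21 transcripts on mm10, with that codon in capitals. Gnai3, which is not among the 10 genes, is shown because its counts are set beside those of Gnai1 and Gnai2.
Gnao1: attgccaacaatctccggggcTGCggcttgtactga
Gnai1: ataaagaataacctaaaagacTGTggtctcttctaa
Gnai2: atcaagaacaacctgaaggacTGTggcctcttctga
Gnai3: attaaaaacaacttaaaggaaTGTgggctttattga
Gnas: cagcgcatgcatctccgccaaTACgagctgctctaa
Gnaq: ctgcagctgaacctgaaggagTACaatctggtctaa
These stretches lie at chr8:93967020-93967055 (plus strand), chr5:18267019-18267054 (minus), chr9:107615635-107615670 (minus), chr3:108109422-108109457 (minus), chr2:174346353-174346388 (plus) and chr19:16383359-16383394 (plus). The capital codon is TGT in the 3 Gnai genes and TGC in Gnao1, both of which encode cysteine, and TAC in Gnas and Gnaq. Over whole coding regions Gnai1 and Gnai2 matched in 78.5% of aligned positions, Gnai1 and Gnao1 in 68.1%, Gnai1 and Gnaq in 60.3%, and Gnai1 and Gnas in 53.7%. The longest run of bases that transcripts of Gnai1 and Gnai2 share exactly was 32, the longest of any pair among Gnai1, Gnai2, Gnai3, Gnao1, Gnaq and Gnas. The shortest such run was 14 bases, for Gnao1 and Gnaq.

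Gamma subunits are short and end in a motif to which a lipid is attached. The whole coding region of Gngt2 is shown because this gene had the most uneven level of the set, with the 4 codons before the stop codon, which encode that motif, in capitals.
Gngt2: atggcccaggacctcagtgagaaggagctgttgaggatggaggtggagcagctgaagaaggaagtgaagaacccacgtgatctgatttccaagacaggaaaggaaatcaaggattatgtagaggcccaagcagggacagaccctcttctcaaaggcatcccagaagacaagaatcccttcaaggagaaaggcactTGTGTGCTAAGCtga
It has 210 coding bases (chr11:95845057-95845608, plus strand, introns included in the span). Among the beta genes, Gnb1 and Gnb2 matched in 77.0% of aligned positions, with exact runs of 20 to 27 bases between the 3 beta transcripts.

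The libraries held 7486359 to 21126291 gene counts, and their cell type markers were uneven. Tgfbr1 itself had 46, 0 and 793 counts in Vglut2-Cre 1 to 3 and 1, 0 and 1538 in no-Cre 1 to 3; these cover the whole gene, not the floxed part, and do not check the labels. Of 13 ganglion cell markers, 7, 10 and 9 reached 10 counts in the Vglut2-Cre libraries and 8, 8 and 5 in the no-Cre libraries, and Pou4f2 was at 0 or 1 count in all 6. Summed, they held 2793 to 3718 CPM (a count scaled to the total of its library) in the Vglut2-Cre libraries and 611 to 4777 CPM in the no-Cre libraries, with no-Cre 3 the lowest. That library had 0 counts of Slc17a6 and 1 of Thy1, but 4203 of Rbpms and 1394 of Pou4f1. Single ganglion cell markers were near 0 elsewhere too: Rbpms had 1 count in Vglut2-Cre 1, and Pou4f1 had 0 in no-Cre 1. The 11 endothelial markers summed to 6344 CPM in no-Cre 3, against 35.9 to 796 CPM in the other 5 libraries. The values of no-Cre 3 therefore stand apart in what follows. Bulk RNA cannot tell fewer cells of a type from less RNA per cell.

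All 10 genes were detected, at 10 counts or more, in at least 3 of the 6 libraries. Vglut2-Cre 1, 2 and 3 detected 8, 10 and 7 of them and no-Cre 1, 2 and 3 detected 7, 7 and 10, which comes to 25 detections in Vglut2-Cre and 24 in no-Cre libraries out of 30 possible in each genotype. Thinning every library to 7486359 counts left both numbers as they were. Gnao1, Gnas, Gnb1, Gnb2 and Gng3, 5 of the 10 genes, were detected in all 6 libraries. Of the 11977 genes detected in any library, 9.99% were. The 10 genes were chosen with their counts in these libraries known, so this difference is no result about them. Of the 20 other subunit genes with a row, only Gng5 and Gng2 were detected in all 6. Among the 10, Gnai2 and Gnaq were missed in 1 library, and Gnai1, Gnb4 and Gngt2 in 3.

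**Figure D1:**
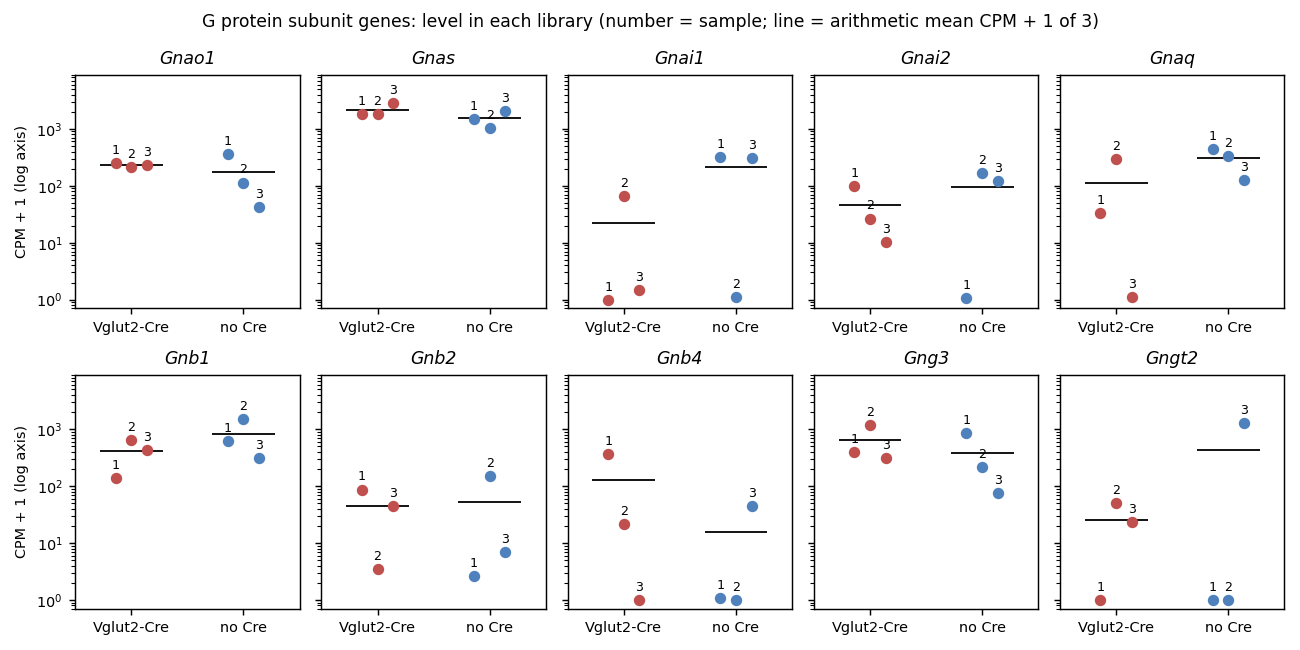
Level of each of the 10 subunit genes in each library, as CPM + 1 on a log axis, with the 3 Vglut2-Cre libraries (red) left of the 3 no-Cre libraries (blue). Numbers give the sample and lines the arithmetic mean of 3; Gnas stays between 1040 and 2832 CPM, and Gngt2 is at 0 counts in 3 libraries and 1294 CPM in no-Cre 3.

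Gnas encodes the alpha subunit of Gs, which stimulates adenylyl cyclase, and its locus also makes the XLas and Nesp proteins, which counts per gene do not separate. It lies on mm10 chromosome 2, 174284320 to 174346744 (plus strand), and shares exon sequence with the antisense gene Nespas. Gnas was at 1851, 1810 and 2832 CPM in Vglut2-Cre 1 to 3 and at 1510, 1040 and 2082 CPM in no-Cre 1 to 3, the steadiest of the 10 genes, with a highest level 2.72 times its lowest. Vglut2-Cre 3 was the highest library and no-Cre 2 the lowest, and the genotypes overlapped through no-Cre 3. The means were 2165 ± 579 CPM in the Vglut2-Cre libraries and 1544 ± 521 CPM in the no-Cre libraries (SD, n = 3 each), and the fitted log2 fold change, Vglut2-Cre over no-Cre, was 0.55 ± 0.42 (SE). This SE, like those of the other log2 fold changes, was computed back from the F test and is approximate.

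Gnao1, the alpha subunit of Go, is the most abundant G protein of neurons and carries the light response of ON bipolar cells. The gene lies on chromosome 8, 93809966 to 93969388 (plus strand). Gnao1 was at 254, 210.2 and 230.03 CPM in the Vglut2-Cre libraries and at 359, 113 and 41.5 CPM in the no-Cre libraries. The 3 Vglut2-Cre values lay close together, with an SD of 21.9 around 231 CPM, inside a no-Cre range whose SD was 167 around 171 CPM. Its log2 fold change was 0.44 ± 1.78. It was 1.88 without no-Cre 1, the library with the highest level, and -0.09 without no-Cre 3, the library with the lowest level of Gnao1 and the lowest sum of ganglion cell markers; the part of cell composition in this was not tested.

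Gnai1 and Gnai2 encode alpha subunits of Gi, which inhibit adenylyl cyclase. They lie on chromosome 5, 18265135 to 18360355, and chromosome 9, 107614125 to 107635367, both on the minus strand. Gnai1 had 0, 1351 and 4 counts in the Vglut2-Cre libraries and 3726, 1 and 5004 counts in the no-Cre libraries. As CPM these were 0, 63.9 and 0.494 in the Vglut2-Cre libraries and 321, 0.134 and 306 in the no-Cre libraries. It was above 300 CPM in no-Cre 1 and no-Cre 3 and near 0 in no-Cre 2 and in Vglut2-Cre 1 and 3. Gnai2 was at 99.9, 25.6 and 9.38 CPM in the Vglut2-Cre libraries and at 0.0861, 163 and 118 CPM in the no-Cre libraries, with 1 count in no-Cre 1. Thus no-Cre 1 held Gnai1 with hardly any Gnai2, no-Cre 2 the reverse, and no-Cre 3 both. Uneven detection was common in the table: of the 11977 genes detected in any library, 32.7% were detected in 1 library only. That share covers genes at any level and does not count gaps as wide as these. Log2 fold changes were -3.33 ± 3.21 for Gnai1 and -0.69 ± 3.02 for Gnai2, and the value of Gnai2 turned positive on voom values (1.13) and on log2(FPKM + 0.1) (0.69). That of Gnai1 was -9.84 without Vglut2-Cre 2, where the remaining Vglut2-Cre libraries held 0 and 4 counts, and -9.02 with the replicate number as a block.

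The related gene Gnai3 had 2112, 2163 and 0 counts in the Vglut2-Cre libraries and 0, 113 and 3784 in the no-Cre libraries. Added together per kilobase, Gnai1, Gnai2 and Gnai3 came to 91.9, 63.0 and 4.44 FPKM (CPM per kilobase of gene length) in Vglut2-Cre 1 to 3 and to 101, 79.3 and 220.2 FPKM in no-Cre 1 to 3. Vglut2-Cre 3 was far below the other 5 libraries in this sum.

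Gnaq, the alpha subunit of Gq, activates phospholipase C beta, and in melanopsin ganglion cells the Gq family links the photopigment to that enzyme. The gene lies on chromosome 19, 16132831 to 16387463 (plus strand). Gnaq was at 31.9, 294 and 0.123 CPM in the Vglut2-Cre libraries and at 449.9, 328 and 124 CPM in the no-Cre libraries. Vglut2-Cre 3 had 1 count, and Vglut2-Cre 2 lay within the no-Cre range. The log2 fold change was -1.42 ± 2.07.

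Gnb1, the beta subunit of rod transducin, is also expressed widely in neurons. It lies on chromosome 4, 155491361 to 155559269 (plus strand), and 2 processed pseudogenes named after it had no row in the count table, so reads shared with them make its level uncertain. Gnb1 was at 138, 649.8 and 434 CPM in the Vglut2-Cre libraries and at 621, 1527 and 311 CPM in the no-Cre libraries. No-Cre 2 was highest and Vglut2-Cre 1 lowest, and the genotypes overlapped. The means were 407 ± 257 CPM in the Vglut2-Cre libraries and 819.5 ± 632 CPM in the no-Cre libraries (SD, n = 3 each), with a log2 fold change of -0.89 ± 0.81.

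Of the 14 rod markers listed, Pde6g, Nrl, Rom1, Pdc and Prph2 had no row, so the sums below leave them out. The other 9 had a row, and 6 of these stayed under 10 counts in all libraries. They summed to 0.0947 to 122 CPM in the Vglut2-Cre libraries and to 0 to 9.28 CPM in the no-Cre libraries, and Gnat1 and Gngt1, the partners of Gnb1 in rods, had 1 count each over all 6 libraries. The highest sum, in Vglut2-Cre 3, was mostly Cngb1, a rod channel subunit with 884 counts there. In Vglut2-Cre 2 and no-Cre 2, the 2 libraries with most Gnb1, the rod markers summed to 0.0947 and 0 CPM. With Gnb1 added to the list the sum was 139, 649.9 and 556 CPM in the Vglut2-Cre libraries and 622, 1527 and 319.9 CPM in the no-Cre libraries, nearly all of it Gnb1 except in Vglut2-Cre 3.

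Gnb2 and Gnb4 encode beta subunits found in many tissues. Gnb2 lies on chromosome 5, 137528127 to 137533510 (minus strand), and Gnb4 on chromosome 3, 32580332 to 32616585 (minus strand). Gnb2 was at 86.0, 2.51 and 44.3 CPM in the Vglut2-Cre libraries and at 1.64, 148 and 6.05 CPM in the no-Cre libraries. It was high in 1 no-Cre library and in Vglut2-Cre 1 and 3, and the genotypes overlapped fully. The log2 fold change was 0.17 ± 3.06 and turned negative with library totals as the scale (-0.23), with median-of-ratios size factors (-0.15), with DESeq2 (-0.15), and without Vglut2-Cre 1 (-0.95), no-Cre 1 (-0.33) or no-Cre 3 (-0.34). Without no-Cre 2, the library with the highest level, it was 3.65.

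Gnb4 had 5044, 428 and 0 counts in the Vglut2-Cre libraries and 1, 0 and 723 counts in the no-Cre libraries, so 84.9% of its summed CPM was in Vglut2-Cre 1, at 362 CPM. The log2 fold change of 3.42 ± 3.54 became -0.56 without that library and 11.25 without no-Cre 3, where the remaining no-Cre libraries held 1 count. It was 9.29 with the replicate number as a block. Vglut2-Cre 1 was also the library in which 4 of 12 microglia and macrophage markers were detected, summing to 531 CPM, where the other Vglut2-Cre libraries summed to 9.23 and 1.11 CPM and the no-Cre libraries to at most 1.89 CPM. These were Lyz2, Ptprc, Fcer1g and Tyrobp, while the defining microglial markers Cx3cr1, P2ry12 and Tmem119 had at most 4 counts in any library. No-Cre 3, the library with the next highest Gnb4 level (44.2 CPM), had 0.122 CPM of the microglia and macrophage markers. Its endothelial markers summed to 6344 CPM, against 486 CPM in Vglut2-Cre 1. Whether cells of either kind bear on Gnb4 was not tested.

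Gng3, a gamma subunit largely restricted to neurons, lies on chromosome 19, 8836933 to 8839194 (minus strand), and overlaps exons of Bscl2 on the other strand, which had 33, 1246 and 0 counts in the Vglut2-Cre libraries and 0, 1 and 1424 in the no-Cre libraries. The strand setting of the counting was not stated, so reads from the overlapping stretch cannot be told apart. Gng3 was at 397, 1202 and 306 CPM in the Vglut2-Cre libraries and at 856, 215 and 73.2 CPM in the no-Cre libraries. Vglut2-Cre 2 was the highest and no-Cre 3 the lowest. The means were 635 ± 493 CPM in the Vglut2-Cre libraries and 381 ± 417 CPM in the no-Cre libraries (SD, n = 3 each), with a log2 fold change of 0.70 ± 0.94 that became -0.04 without Vglut2-Cre 2. It was 2.41 without no-Cre 1 and 2.17 on voom values.

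Gngt2, the gamma subunit of cone transducin, lies on chromosome 11, 95837216 to 95845734 (plus strand). It had 0, 1036 and 183 counts in the Vglut2-Cre libraries and 0, 0 and 21184 in the no-Cre libraries, so 94.8% of its summed CPM was in no-Cre 3, at 1294 CPM. A count of 0 allows up to 0.215 CPM in Vglut2-Cre 1 and up to 0.258 and 0.401 CPM in no-Cre 1 and no-Cre 2, by counting error only. The log2 fold change of -4.13 ± 3.28 rested on no-Cre 3: without it the remaining no-Cre libraries were all at 0, and the fitted value, which then depends on the prior count, was 11.15. It was also positive on voom values (1.71), on log2(FPKM + 0.1) (1.08) and with the replicate number as a block (0.29).

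Among the cone markers with a row, none accompanied Gngt2, and Opn1sw, Arr3, Pde6h and Cngb3 had no row. Of 9 listed, 5 had a row and all 5 (Opn1mw, Gnat2, Gnb3, Pde6c and Cnga3) stayed under 10 counts in every library, with a sum of 0.0473 to 0.431 CPM in the Vglut2-Cre libraries and 0 to 0.172 CPM in the no-Cre libraries; in no-Cre 3 it was 0. With Gngt2 added the sum was 0.431, 49.1 and 22.7 CPM in the Vglut2-Cre libraries and 0.172, 0 and 1294 CPM in the no-Cre libraries. No-Cre 3 had the 6344 CPM of endothelial markers given above, led by Cdh5 (1451 CPM) and Kdr (975 CPM). Abi3, whose exons overlap Gngt2 on the opposite strand, had 62, 1 and 0 counts in the Vglut2-Cre libraries and 0, 1 and 1579 in the no-Cre libraries. Thus Abi3 too was highest in no-Cre 3. Without a stated strand setting, reads from the overlapping stretch cannot be told apart. The part of endothelial cells and of Abi3 in the Gngt2 level was not tested.

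**Figure D2:**
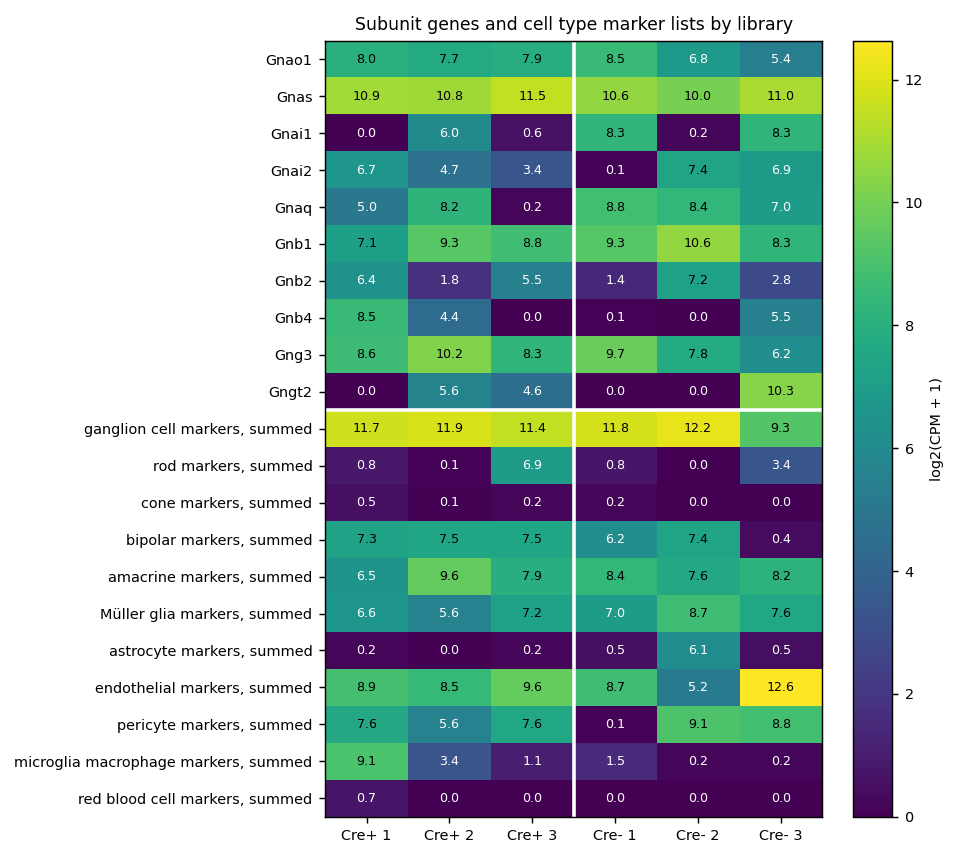
Log2(CPM + 1) of the 10 subunit genes (upper rows) and of the summed cell type marker lists (lower rows) in each library; Cre+ marks Vglut2-Cre and Cre- marks no-Cre libraries. In no-Cre 3 (Cre- 3) Gngt2 stands at 1294 CPM and the endothelial markers at 6344 CPM while the cone markers with a row are at 0.

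Across the whole table no gene passed edgeR's quasi-likelihood test with Benjamini-Hochberg adjustment. It called 0 of 5727 genes (0% called) and hence 0 of the 10 subunit genes, all of which passed the low-count filter. At an unadjusted p under 0.05, 257 genes were higher and 24 lower in the Vglut2-Cre libraries, none of them one of the 10. DESeq2 called 885 genes (15% of those with an adjusted p) and 0 of the 8 subunit genes for which it gave one, and limma voom called 88 (1.54%) and 0 of 10. All 10 genes had Vglut2-Cre and no-Cre libraries that overlapped in CPM; among all tested genes every Vglut2-Cre library lay above every no-Cre library for 10.4% and below for 2.3%. The fitted values were positive for 5 genes and negative for 5, with a median of -0.26, against 0.14 for all tested genes. With median-of-ratios size factors those medians were -0.62 and -0.13, with 4 genes positive, and on voom values 0.86 and 1.58, with 7 positive.

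**Figure D3:**
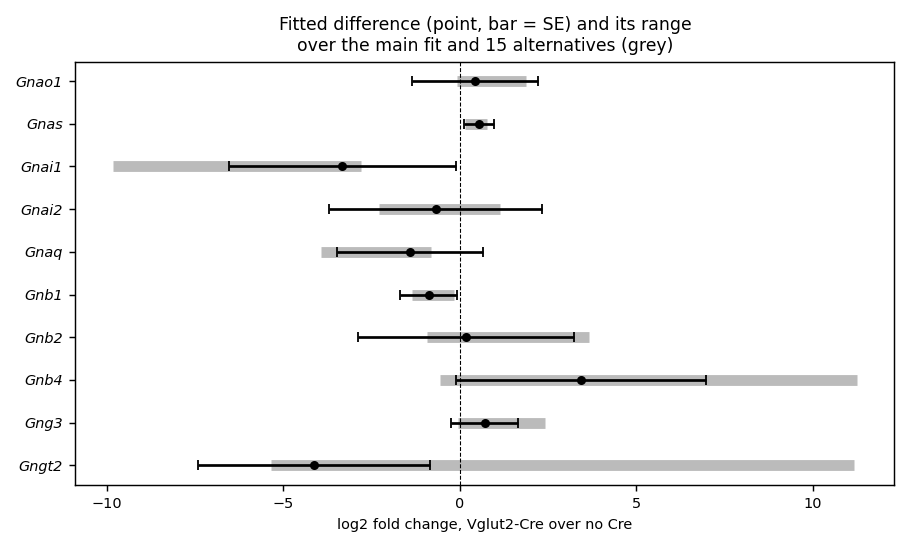
Fitted log2 fold change of each subunit gene, Vglut2-Cre over no-Cre, as points with bars of the approximate SE, and the range of the same value over the main fit and 15 alternatives in grey. Gnas has the narrowest range, 0.15 to 0.76, and that of Gngt2 runs from -5.35 to 11.15.

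Compared per kilobase, the order of the 10 genes by median FPKM over 6 libraries was Gnas (221), Gng3 (207), Gnb1 (165), Gnaq (30.5), Gnai2 (28.6), Gnao1 (22.9), Gngt2 (12.4), Gnai1 (10.1), Gnb2 (5.27) and Gnb4 (1.23). The ranges of all 9 neighbouring pairs overlapped. Gnb1 was above Gnaq in 6 of 6 libraries, and no other neighbour pair kept its order in every library. Fixed gene lengths were used, and the 9612 bases of Gnao1, the longest length among the 10, give it a low FPKM for its counts.

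Within each class, 1 gene led by FPKM in most libraries. Gnas led the 14 alpha genes in every library, with 54.7%, 57.8% and 84.8% of their summed FPKM in Vglut2-Cre 1 to 3 and 44.7%, 31.9% and 49.4% in no-Cre 1 to 3. Behind Gnas came a different gene from library to library: Gna13, Gnaq and Gnao1 in Vglut2-Cre 1 to 3, Gnai1 in no-Cre 1 and no-Cre 3, and Gnai2 in no-Cre 2. Gnb1 held 95.8% and 93.6% of the beta signal in Vglut2-Cre 2 and 3 and 99.8%, 93.9% and 57.6% in no-Cre 1 to 3. In Vglut2-Cre 1 it held 41.1%, beside 41.7% for Gnb4. That balance depended on the gene lengths, 3204 bases for Gnb1 and 8293 for Gnb4. In counts, Gnb4 had 5044 there and Gnb1 1921.

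By FPKM, the gamma class was led by a gene outside the set. Gng5, a broadly expressed gamma subunit, held 56.4%, 41.9% and 55.2% of gamma FPKM in the Vglut2-Cre libraries and 33.1%, 61.9% and 38.4% in the no-Cre libraries. Gng3 held 9.01%, 38.7% and 5.87% in the Vglut2-Cre libraries and 17.2%, 11.7% and 1.47% in the no-Cre libraries. Gngt2 led in no-Cre 3 alone, with 48.1%. The lead of Gng5 depended on the length correction, at 535 bases against 1699 for Gng3. In counts, Gng5 led only in Vglut2-Cre 1. Gng3 was above it in Vglut2-Cre 2 (25402 against 8665) and no-Cre 1 (9934 against 6009). Gng11 was above it in Vglut2-Cre 3 (7673 against 7351), and Gng12 in no-Cre 2 (3180 against 2676). Summed over the alpha class the libraries lay closer together than for any of the 5 alpha genes of the set, at 409, 378 and 403 FPKM in Vglut2-Cre 1 to 3 and 408, 395 and 509 FPKM in no-Cre 1 to 3.

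**Figure D4:**
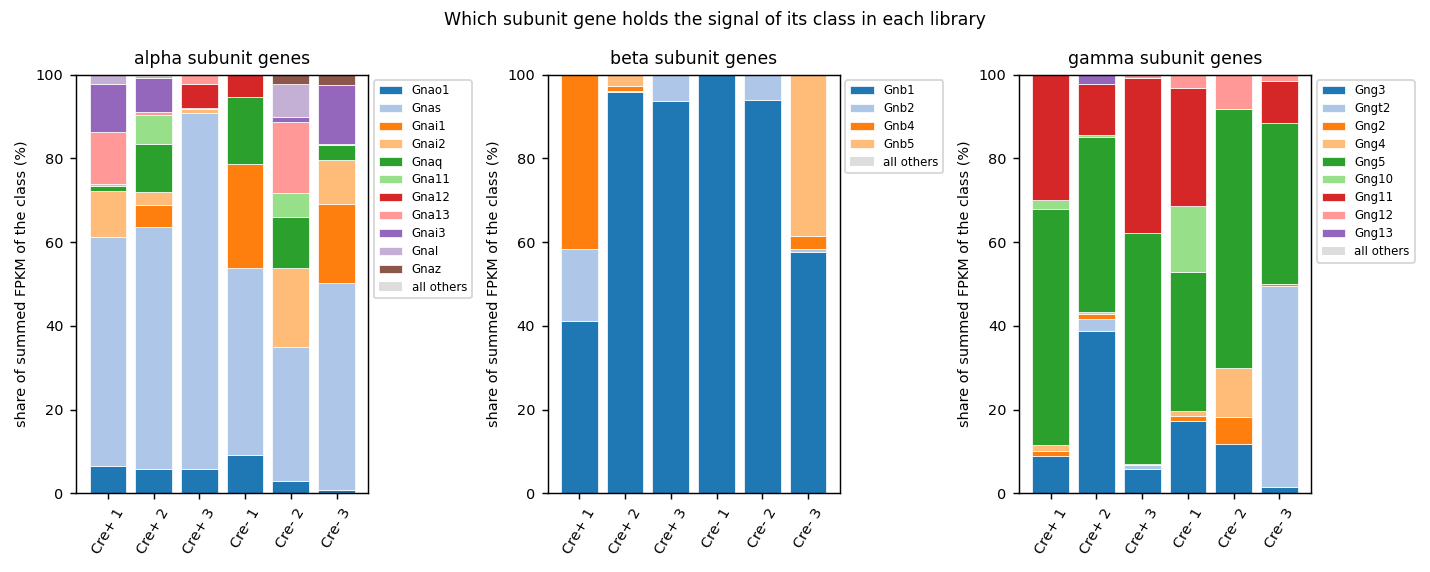
Share of the summed FPKM of the alpha, beta and gamma subunit genes held by each gene, 1 bar per library, Vglut2-Cre (Cre+) left of no-Cre (Cre-). Gnas leads the alpha genes in all 6 libraries (31.9% to 84.8%), while the leading beta or gamma gene changes in Vglut2-Cre 1 and no-Cre 3.

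Of the 20 other subunit genes with a row, 11 passed the low-count filter, 5 with a positive and 6 with a negative log2 fold change (median -0.97), and 0 passed the test. Gng5 was detected in all libraries, with 10896, 8665 and 7351 counts in the Vglut2-Cre libraries and 6009, 2676 and 9902 in the no-Cre libraries. Gng11, a gamma subunit common in endothelium and other non-neuronal cells, had 9080, 3917 and 7673 counts in the Vglut2-Cre libraries and 7976, 0 and 3975 in the no-Cre libraries. Gng12, another broadly expressed gamma subunit, had 1, 246 and 1046 counts in the Vglut2-Cre libraries and 5263, 3180 and 3851 in the no-Cre libraries, with a log2 fold change of -3.04 ± 2.18 that stayed negative in all 15 alternatives. Its genotypes did not overlap in CPM, which held for 1 of the 11 tested genes here and, over all tested genes, for 10.4% higher and 2.3% lower. Gna13, an alpha subunit that signals to the cytoskeleton, had 4625, 283 and 451 counts in the Vglut2-Cre libraries and 0, 3260 and 189 in the no-Cre libraries. Gng4 and Gng2 are neuronal gamma subunits. Gng4 had 1692, 650 and 244 counts in the Vglut2-Cre libraries and 1397, 3072 and 0 in the no-Cre libraries, and Gng2 had 1681, 1788 and 21 in the Vglut2-Cre libraries and 1645, 2297 and 851 in the no-Cre libraries.

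Of 58 regulators and effectors of G proteins in 4 lists (chaperones and nucleotide modulators, RGS proteins, effectors, receptor kinases and arrestins), 54 had a row, 19 passed the low-count filter and 0 passed edgeR's test, with 10 of 19 log2 fold changes positive. Rgs4, an RGS protein of Gi and Gq signalling, had 2176, 4080 and 1931 counts in the Vglut2-Cre libraries and 4, 0 and 0 in the no-Cre libraries. It had the lowest adjusted p of the 19 in edgeR (0.721), and was the single gene of the lists called by DESeq2 (adjusted p = 0.00394) and by limma voom (adjusted p = 0.0337). That is 1 of the 25 list genes with an adjusted p in DESeq2, where 15% of all genes were called, and 1 of 19 in limma voom, where 1.54% were. Rgs7 and its membrane anchor Rgs7bp, which act on Go, were the RGS genes with most CPM: Rgs7 had 289, 3158 and 778 counts in the Vglut2-Cre libraries and 0, 3100 and 1563 in the no-Cre libraries, and Rgs7bp had 763, 3322 and 2000 in the Vglut2-Cre libraries and 3931, 2277 and 0 in the no-Cre libraries. Rgs12, another RGS protein, had 62, 0 and 147 counts in the Vglut2-Cre libraries and 240, 0 and 979 in the no-Cre libraries.

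Plcb4, the phospholipase C that melanopsin signalling uses, had 200, 51 and 292 counts in the Vglut2-Cre libraries and 3305, 346 and 1074 in the no-Cre libraries, with a log2 fold change of -2.99 ± 3.04. Kcnj6, a potassium channel opened by beta-gamma, had 2312, 231 and 1015 counts in the Vglut2-Cre libraries and 6, 272 and 90 in the no-Cre libraries (3.18 ± 3.23). Adcy2, an adenylyl cyclase, had 1188, 1335 and 2010 counts in the Vglut2-Cre libraries and 2, 1158 and 1 in the no-Cre libraries. Arhgef12, a guanine nucleotide exchange factor that Gna13 activates, had 1553, 1365 and 1071 counts in the Vglut2-Cre libraries and 0, 814 and 2633 in the no-Cre libraries. Over the 4 lists the genotypes did not overlap for Rgs4 (higher), Plcb4 (lower) and Plcb3 (lower), the last of which did not pass the low-count filter; over all tested genes the shares were 10.4% higher and 2.3% lower. Grk5, a receptor kinase, had 0, 0 and 187 counts in the Vglut2-Cre libraries and 1335, 1 and 5464 in the no-Cre libraries. Arrb1, an arrestin, had 251, 11 and 0 counts in the Vglut2-Cre libraries and 1105, 977 and 0 in the no-Cre libraries. For both genes each genotype held a library at 0 or 1 count. Pdcl3, a phosducin-like chaperone, was found in every library, with 5593, 2660 and 1117 counts in the Vglut2-Cre libraries and 7603, 2792 and 4062 in the no-Cre libraries. Its relative Pdcl had 0, 2126 and 1139 counts in the Vglut2-Cre libraries and 5960, 0 and 0 in the no-Cre libraries. Ric8b, a chaperone of Gs-type alpha subunits, had 599, 545 and 171 counts in the Vglut2-Cre libraries and 0, 344 and 0 in the no-Cre libraries. None of these genes from Plcb4 to Ric8b passed edgeR's test.

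The genes whose profile over the 6 libraries was nearest to a member's were found by the root mean square difference of log2(CPM + 1), each gene centred on its mean, among 5552 genes detected in at least 3 libraries. Gnao1 was nearest to Elob (0.23) and Acot13 (0.24), Gnai1 to Galnt7 (0.29) and Mmgt1 (0.45), and Gnb1 to Eno2 (0.35) and Psmb4 (0.44). Gnb4 was nearest to Sox17 (0.38), which had 2435, 348 and 0 counts in the Vglut2-Cre libraries and 0, 0 and 732 in the no-Cre libraries, and to Prox1 (0.48). Gnaq lay nearest to Psmd10 (0.48) and Dido1 (0.58), Gng3 to Acot13 (0.50) and Cstb (0.51), Gnb2 to Ing1 (0.53) and Tepsin (0.62), and Gnai2 to Ric1 (0.54) and Mocs2 (0.56). Gngt2 had the most distant neighbours, Ifi35 (0.80) and Slc9a7 (0.87), both highest in no-Cre 3 with 6616 and 6682 counts. These distances describe 6 libraries and carry no test.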

How the data were processed

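The submitters' processing notes list mm10 as the build and name HTSeq, HISAT2, fastp, DESeq2 and R 3.2.0, without their roles. Read length, annotation and strand setting were not stated there. The authors deposited whole-number counts for 22413 genes in one table and FPKM in another, each with a column per library, and 0 columns belonged to other samples. Dividing counts by deposited FPKM and library total gave one length per gene, whole within 0.01 base for 100% of genes.

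Genotypes were compared with edgeR 4.0.16 (TMM, filterByExpr, robust quasi-likelihood F test, genotype as the only term, adjusted p threshold 0.05) in R 4.3.3, over all 5727 genes that passed the filter. The quasi-likelihood test gives no SE. The SE printed for edgeR is the size of the log2 fold change divided by the square root of the F statistic, an approximation. DESeq2 1.42.0 (16513 genes without an adjusted p left as missing), limma 3.58.1, other scalings and filters, a replicate block and each library left out in turn were alternatives. Library totals were 13936519, 21126291 and 8098891 counts in Vglut2-Cre 1 to 3 and 11609621, 7486359 and 16372260 in no-Cre 1 to 3. Floors of 3 counts cover counting error only, as reads are not independent molecules.

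The members, gene lists and naming rule were chosen with earlier results of these data known. The rule named all 10 members; the 6 other subunits with the highest mean CPM and the photoreceptor subunits; the 2 highest and the 2 of smallest p of each pathway list; the 2 highest markers of a list set beside a member; and, for members ranging over more than 2 on log2(CPM + 1), the 2 nearest profiles. Gnai3, Plcb3, Bscl2, Abi3 and some markers beside a member were named outside it, after their values were seen. Ric8b also falls outside it, as Pdcl3 and Pdcl had both the highest mean CPM and the smallest p of their list. Coordinates, transcripts and coding sequences are from GENCODE M21 (mm10), read with Python 3.11.15; protein sequences were not used here. List symbols without a row in the table were not analysed here. One rod marker and one coding sequence are not reported here.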

Additional observations from a re-analysis of the deposited data

How the results depend on the processing

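Over 15 alternatives, 0 of the 10 subunit genes were called in any. The log2 fold changes of 4 genes (Gnas, Gnai1, Gnaq and Gnb1) kept their sign in all 15, and those of the other 6 turned in at least 1, as given beside each gene. The count of genes called over the whole table was 0 in the main edgeR fit and in each edgeR and FPKM alternative with all 6 libraries, the replicate block included. DESeq2 called 744 higher and 141 lower, and limma voom 82 higher and 6 lower. With 1 library left out edgeR called 0 to 7 genes higher and 0 to 1 lower: 1 higher and 1 lower without Vglut2-Cre 1, 0 without Vglut2-Cre 2 or 3, and 7, 3 and 4 higher without no-Cre 1, 2 and 3. Same-numbered libraries showed no sign of pairing: deviations from their group means correlated at -0.02, 0.03 and -0.01 over genes, which are not independent. With only 9.99% of detected genes found in all 6 libraries, these values cannot exclude a shared batch. Detections of the 10 genes were 27 in each genotype at 1 count or more, and 25 (Vglut2-Cre) and 23 (no-Cre) at 30 counts or more. Without no-Cre 3 the no-Cre libraries had 14 of 20, and without Vglut2-Cre 2 the Vglut2-Cre libraries had 15 of 20. Taking shares of each subunit class from counts with no length correction moved 2 of 20 mean shares of the 10 genes by more than 1 SD. This SD between libraries was large for many genes, so the count does not show that shares hold without length correction. Within 1 SD, the mean share of Gng3 in the Vglut2-Cre libraries went from 17.9% (SD 18.1) to 30.6%. That of Gnb1 in the no-Cre libraries went from 83.8% (SD 22.8) to 83.5%. Outside the 10 genes, the mean share of Gng5 went from 51.2% to 32.0% in the Vglut2-Cre libraries. In the no-Cre libraries it went from 44.5% to 20.2%. Over all genes tested, the median log2 fold change ran from -0.13 with median-of-ratios size factors to 1.58 on voom values. The biological coefficient of variation was 2.04, and the approximate SE of the log2 fold change ran from 0.42 for Gnas to 3.54 for Gnb4.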
